A study of Mus musculus with 16 samples.

Results

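The genes described here are 7 members of the regulator of G-protein signalling (RGS) family, Rgs1, Rgs2, Rgs10, Rgs14, Rgs16, Rgs18 and Rgs19, out of 54838 gene identifiers in the deposited count files. They were taken by symbol, and they were picked because Rgs2 was much lower in TNFα-treated than in DMSO-treated cells. Of the 7, 6 passed the filter on low counts, which kept 12612 genes. Rgs16 did not pass and is given by its reads only.

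RNA was sequenced from bone marrow-derived macrophages, cultured for 7 days with medium conditioned by L929 cells (15%), of mice without apolipoprotein E (strain C57BL/6J, genotype B6.129P2-Apoetm1Unc/J in the labels). All 16 libraries share that genotype, so none comes from wild-type cells. The 4 groups of 4 libraries were DMSO, TNFα (50 ng/ml, 24 h), TMP195+TNFα (5 µM TMP195 for 1 h, then the same TNFα) and TPCA-1+TNFα (500 nM TPCA-1 for 1 h, then the same TNFα). TMP195 inhibits class IIa histone deacetylases and TPCA-1 inhibits the IkB kinase IKK2, and the compounds are not analogs of each other. Whether the replicates are separate animals or separate cultures is not given, so p-values measure only the spread between these libraries, which may be technical. Whether the TNFα-only cells also received DMSO is not given either.

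A receptor coupled to a heterotrimeric G protein loads its Gα subunit with GTP, and Gα then acts on effectors such as adenylyl cyclase or phospholipase C until it hydrolyses the GTP. RGS proteins bind active Gα and speed that hydrolysis, so they shorten the signal. In leukocytes they are known for limiting responses to chemokines and other ligands of these receptors.

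The promoter sequences of the members with the largest and the smallest difference between TNFα and DMSO are shown, to put the regulatory sequence beside those values. They come from the RefSeq promoter table (build GRCm38.p6), are 250 bases long, end at the RefSeq start and are written 5′ to 3′ on the strand of the gene. The Rgs2 window is chr1:144004150-144004399 and the Rgs19 window shown is chr2:181693978-181694227, both on the minus strand. Rgs19 has further windows in that table, which are not shown. Capitals mark the TGACG core of the cyclic AMP response element (CRE) on either strand.
Rgs2: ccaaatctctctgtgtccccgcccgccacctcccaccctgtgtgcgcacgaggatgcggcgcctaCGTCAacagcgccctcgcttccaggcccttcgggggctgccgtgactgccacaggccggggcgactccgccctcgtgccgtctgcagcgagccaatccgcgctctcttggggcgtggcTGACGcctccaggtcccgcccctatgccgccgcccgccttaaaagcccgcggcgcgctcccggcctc
Rgs19: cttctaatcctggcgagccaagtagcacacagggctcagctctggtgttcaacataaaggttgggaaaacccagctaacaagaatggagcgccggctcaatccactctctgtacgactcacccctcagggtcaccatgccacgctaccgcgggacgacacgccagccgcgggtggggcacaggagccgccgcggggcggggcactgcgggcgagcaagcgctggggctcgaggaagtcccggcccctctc

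The Rgs2 window held 2 such cores, the first on the opposite strand with its first base 185 bases before the start and the second on the gene's strand at 67 bases. The table matched 4 members (Rgs2, Rgs10, Rgs16 and Rgs19) with 6 windows, and among those windows TGACG was found in that of Rgs2 only. Of all 32817 windows, 17.7% held TGACG on either strand. CCAAT, searched on both strands, was found in the Rgs2 and Rgs16 windows and in 33.8% of all windows. The full CRE TGACGTCA (1.55% of windows), the AP-1 site TGANTCA (6.75%), the NF-kB motif (3.90%) and the MEF2 motif (2.92%) were in none of the 6. The Rgs2 window was 72.4% G and C, against a median of 52.4% over all windows. These are matches of letters and do not show binding.

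Rgs2 (chromosome 1, 143999338 to 144004161), Rgs1 (144242296 to 144249242) and Rgs18 (144752683 to 144775435) lie on the minus strand within 776 kb of GRCm38. That stretch holds 5 protein-coding genes, all of them RGS genes, and the other 2, Rgs13 and Rgs21, had 0 reads in all 16 libraries. Rgs16 lies farther along chromosome 1 (153740349 to 153745468). Rgs10 is on chromosome 7 (128373621 to 128418758), Rgs14 on chromosome 13 (55369732 to 55384687) and Rgs19 on chromosome 2 (181688419 to 181693977).

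Counted reads per library came to 7.49 to 31.6 in units of 1e6, and a floor of 3 counts equals 0.095 to 0.401 counts per 1e6 reads (CPM, with libraries scaled by TMM). TPCA-1+TNFα 2 stood apart: it was the shallowest, at 7.49, and 44.0% of its reads did not map, where the range over the remaining 15 was 4.0% to 7.11%. Of the markers for macrophages, 8 of 8 passed the filter, led by Lyz2 at a mean of 11335 CPM. The defining markers Ly6g and Elane of neutrophils and Pax5 of B cells were at 0 in all libraries. The highest gene of each of those lists and of the stromal and endothelial list was detected. Csf3r, of the neutrophil list, was at 37.0 to 76.9 CPM in DMSO, 55.6 to 112 in TNFα, 47.1 to 85.9 in TMP195+TNFα and 28.6 to 37.7 in TPCA-1+TNFα. Cd79b, of the B cell list, was at 25.2 to 37.4, 12.4 to 20.3, 9.66 to 14.4 and 27.3 to 48.6 CPM in the same order. Pecam1, of the stromal and endothelial list, was at 6.99 to 10.2, 3.47 to 6.97, 3.49 to 5.72 and 15.4 to 38.6 CPM. Their part in the results was not tested. In these bulk samples, fewer cells of a type and less RNA per cell cannot be told apart.

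Levels of different genes were compared per kilobase of merged exons. In DMSO, Rgs19 (76.9 ± 1.84 CPM per kb; SD, n = 4), Rgs10 (72.1 ± 6.80) and Rgs18 (65.9 ± 16.8) were highest, and their libraries overlapped. Rgs2 followed at 27.5 ± 9.11 CPM per kb, below every Rgs18 library and above every Rgs1 library. Rgs1 (6.94 ± 2.82) and Rgs14 (2.61 ± 0.552 CPM per kb) overlapped at the lower end. After TNFα, Rgs2 stood at 1.96 ± 0.701 CPM per kb, in the range of Rgs14 (2.12 ± 0.420) and Rgs1 (1.74 ± 0.722). Rgs19 was then highest at 70.0 ± 2.6 CPM per kb, above every library of Rgs10 (34.5 ± 2.66) and Rgs18 (29.0 ± 7.64). Several of these orders depend on the length used. Per kilobase of the longest coding transcript, DMSO levels were 140.2 ± 13.2 for Rgs10, 113 ± 2.72 for Rgs19 and 65.9 ± 16.8 CPM per kb for Rgs18. After TNFα, Rgs2 was on that length at 2.35 ± 0.842, Rgs14 at 3.82 ± 0.756 and Rgs1 at 3.14 ± 1.31 CPM per kb.

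The comparison of TNFα with DMSO asks what the cytokine alone did. All 6 members that passed the filter had a lower fitted level in TNFα than in DMSO, as had 49.8% of all genes tested. For 5 of 6 every TNFα library lay below every DMSO library, and 14.3% of all genes did so. Rgs2 was chosen on this comparison, so these values are a description, with no test. The plot of CPM by library shows all members in all groups.

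**Figure D1:**
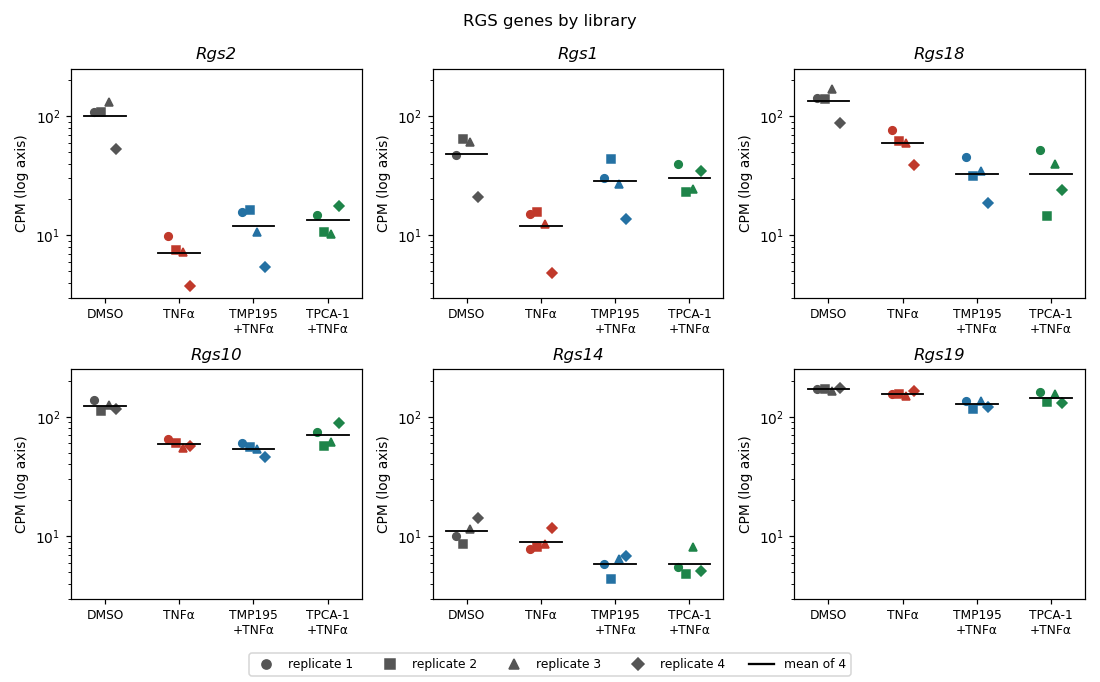
CPM (log axis) of the 6 RGS genes that passed the filter, in each of 16 libraries, by group; the marker shape gives the replicate number and the line the mean of 4. Rgs2 goes from 52.6 to 130.0 CPM in DMSO to 3.76 to 9.95 CPM in TNFα, while Rgs19 stays between 116 and 176 CPM in all libraries.

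Rgs2, known for acting on Gαq, was at 107, 109, 130.0 and 52.6 CPM in DMSO libraries 1 to 4 and at 9.95, 7.51, 7.23 and 3.76 CPM in TNFα libraries 1 to 4. The lowest DMSO library was more than 5 times the highest TNFα library. The fitted difference was -3.81 ± 0.36 (log2, SE), 14.04-fold lower in TNFα. With TMP195+TNFα Rgs2 was at 15.6, 16.2, 10.7 and 5.40 CPM, and with TPCA-1+TNFα at 14.8, 10.7, 10.3 and 17.6 CPM. All 8 of those libraries were below every DMSO library. The log2 difference from DMSO was -3.06 ± 0.35 with TMP195+TNFα and -2.89 ± 0.35 with TPCA-1+TNFα.

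Rgs1, known for damping chemokine responses in lymphocytes, was at 47.1, 64.2, 60.7 and 21.0 CPM in DMSO and at 15.1, 15.8, 12.5 and 4.83 CPM in TNFα. The groups did not overlap, and TNFα was 4.01-fold lower (log2 difference -2.0 ± 0.39). Rgs1 was at 30.2, 43.5, 26.9 and 13.7 CPM with TMP195+TNFα and at 39.7, 23.0, 24.6 and 34.4 CPM with TPCA-1+TNFα. Both inhibitor groups overlapped DMSO, from which they differed by -0.76 ± 0.37 and -0.66 ± 0.37 on the log2 scale. Rgs1 was the one member whose inhibitor groups both overlapped DMSO. For the other 5 the libraries of each inhibitor group lay below all DMSO libraries, which 15.4% of all genes did with TMP195+TNFα and 14.1% with TPCA-1+TNFα.

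Rgs18, known from megakaryocytes and platelets, was at 141, 139, 169 and 87.0 CPM in DMSO and at 76.6, 61.5, 59.0 and 38.8 CPM in TNFα. The groups did not overlap (log2 difference -1.18 ± 0.32, 2.27-fold lower). It was at 45.0, 31.4, 34.7 and 18.8 CPM with TMP195+TNFα and at 52.0, 14.6, 39.4 and 23.8 CPM with TPCA-1+TNFα. All 8 of those libraries were below the lowest DMSO library. The lowest value, 14.6 CPM, came from TPCA-1+TNFα 2, the shallow library. Of 9 megakaryocyte and platelet markers 4 passed the filter. Below 1 CPM in every library were 5 of the 9, among them Gp1bb, which was at 0 in all libraries. The summed level of the 9, nearly all of it Pf4, was 1136 to 1393 CPM in DMSO, 1276 to 1706 in TNFα, 1395 to 1777 in TMP195+TNFα and 489 to 1091 in TPCA-1+TNFα. Members of the list differed in direction. Treml1 was at 1.16 to 1.68 CPM in DMSO, 0.0965 to 0.511 in TNFα, 0.655 to 1.27 in TMP195+TNFα and 0.486 to 0.946 in TPCA-1+TNFα. Ppbp was at 1.43 to 1.73, 3.73 to 9.46, 3.84 to 11.6 and 5.14 to 24.6 CPM in that order. Whether megakaryocytes or platelets were present, and what part they would have in the Rgs18 levels, was not tested.

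Rgs10, described in macrophages and microglia as limiting inflammatory signalling, was at 139, 113, 125 and 117 CPM in DMSO and at 64.8, 60.4, 54.5 and 56.7 CPM in TNFα. The groups lay far apart (log2 difference -1.06 ± 0.13, 2.09-fold lower), and the spread within each was small. With TMP195+TNFα it was at 60.8, 55.5, 53.5 and 46.2 CPM and with TPCA-1+TNFα at 74.1, 57.6, 61.9 and 88.6 CPM. No library of either inhibitor group reached the DMSO range. Rgs14, a larger member that also carries Ras-binding domains and a GoLoco motif that binds Gα, was at 10.0, 8.62, 11.5 and 14.1 CPM in DMSO and at 7.79, 8.05, 8.54 and 11.6 CPM in TNFα. Those groups overlapped (log2 difference -0.30 ± 0.20). Rgs14 was at 5.90, 4.41, 6.45 and 6.80 CPM with TMP195+TNFα and at 5.47, 4.86, 8.12 and 5.11 CPM with TPCA-1+TNFα, all below the lowest DMSO library.

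Rgs19, which encodes the Gα-interacting protein GAIP, differed least: it was at 173, 171, 166 and 176 CPM in DMSO and at 155, 156, 149.7 and 164 CPM in TNFα. The groups just failed to overlap (log2 difference -0.14 ± 0.09). It was at 137, 116, 135 and 119.9 CPM with TMP195+TNFα and at 163, 134, 155 and 130.3 CPM with TPCA-1+TNFα. Rgs16 had 5 to 12 reads per library in DMSO, 2 to 7 in TNFα, 3 to 6 in TMP195+TNFα and 0 to 2 in TPCA-1+TNFα. These reads are near the floor, so no fold is given. Rgs16 also overlaps the exons of an antisense transcript, Gm28513, which only the strand of the reads separates from it.

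The comparison of TMP195+TNFα with TNFα alone asks what class IIa deacetylase inhibition did to stimulated cells. Rgs1 and Rgs2 were higher, and Rgs10, Rgs14, Rgs18 and Rgs19 lower, in each of the 4 TMP195+TNFα libraries than in the TNFα library of the same number. The share of all genes that kept the same sign in all 4 pairs was not counted, so how unusual this is cannot be said. Without a block, 0 of 6 members passed an adjusted p of 0.05 in edgeR's quasi-likelihood test with Benjamini-Hochberg adjustment, against 5.95% of all genes. At an unadjusted p of 0.05, 5 of 6 members passed, against 18.8% of genes. DESeq2 called 3 members (8.88% of genes) and limma 4 (14.1%). Equal replicate numbers were taken as pairing the libraries of these groups, because same-numbered libraries deviated together from their group means. The labels do not state such a pairing. With the number as a block, edgeR called 4 members (13.5% of genes). That fit took in all 16 libraries, so the TPCA-1+TNFα libraries, not taken as paired, also entered its block. The calls thus depend on the model, while no alternative run changed the sign of a member.

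Rgs1 was higher with TMP195 in 4 of 4 same-numbered pairs, by 2.00-fold to 2.83-fold. Its fitted difference of 1.25 ± 0.39 had an adjusted p of 0.0664 (edgeR), and 0.00952 with the block. Rgs2 was also higher in 4 of 4 pairs, by 1.43-fold to 2.16-fold. At 0.75 ± 0.34 it passed neither way (adjusted p = 0.243 in edgeR, and 0.118 with the block). Rgs2 was picked for its low level in these same TNFα libraries, and that choice favours a higher value against them. Of the alternative runs, only that without the 4 libraries numbered 4 called Rgs2 (0.79 ± 0.19, adjusted p = 0.0456, edgeR).

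Rgs18 was lower with TMP195 in 4 of 4 pairs, at 0.483 to 0.588 of the TNFα level. The fitted difference was -0.86 ± 0.33 (adjusted p = 0.140 in edgeR; 0.00665 with the block). Rgs14 was at 0.548 to 0.757 of the TNFα level (-0.61 ± 0.20, adjusted p = 0.0864 in edgeR; 0.0130 with the block). Rgs19 was at 0.732 to 0.902 of it (-0.30 ± 0.09, adjusted p = 0.0604 in edgeR; 0.0225 with the block). The TMP195 and TNFα libraries of Rgs14 and Rgs19 did not overlap, as held for 7.00% of all genes in the lower direction. For Rgs10 the difference was -0.13 ± 0.13 with a 95% interval of -0.40 to 0.14. Of the 3 neighbours on chromosome 1, Rgs1 and Rgs2 were higher and Rgs18 lower than in TNFα alone in every same-numbered pair. How many of all genes kept the same sign in every pair was not counted.

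**Figure D2:**
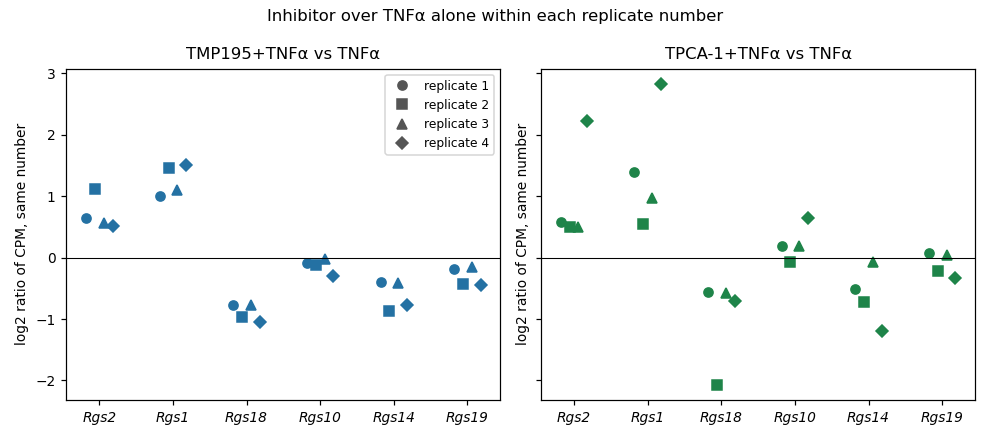
Log2 ratio of CPM in the inhibitor library over the TNFα library of the same replicate number, for the 6 RGS genes; marker shape gives the number, which was not taken as pairing the TPCA-1+TNFα libraries. With TMP195 the 4 points of each gene lie on 1 side of 0; with TPCA-1 the fourth pair stands apart for Rgs1 (7.13-fold) and Rgs2 (4.68-fold).

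Against the same TNFα libraries, TPCA-1+TNFα asks what IKK2 inhibition did. Rgs1, Rgs2 and Rgs10 had higher means and Rgs14, Rgs18 and Rgs19 lower means than in TNFα alone. In all, 2 of 6 members passed (edgeR, adjusted p of 0.05), against 19.4% of all genes. Rgs1 rose (log2 difference 1.34 ± 0.39, 2.54-fold, adjusted p = 0.0216 by edgeR's quasi-likelihood test), and every TPCA-1+TNFα library was above every TNFα library. Without TNFα 3 or without TPCA-1+TNFα 4 the Rgs1 call was lost, with an adjusted p of at most 0.0590. Rgs14 fell by 0.60 ± 0.20 on the log2 scale (adjusted p = 0.0496), its groups overlapping. That call was held without TPCA-1+TNFα 3 and lost when any other of the 8 libraries was left out, with an adjusted p of up to 0.133.

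Rgs2 was higher in all TPCA-1+TNFα libraries than in all TNFα libraries, as were 8.71% of genes, yet its difference of 0.92 ± 0.35 missed the threshold (adjusted p = 0.0713, edgeR). Without the 4 libraries numbered 4 it was 0.55 ± 0.20 (adjusted p = 0.0660), while Rgs2 passed with DESeq2 (0.0480) and with no filter on low counts (adjusted p = 0.0204). Rgs18 differed by -0.84 ± 0.33 (adjusted p = 0.0805), and by -0.63 ± 0.31 without the shallow library TPCA-1+TNFα 2 (adjusted p = 0.199). It passed without TPCA-1+TNFα 1 (-1.17 ± 0.33, adjusted p = 0.0172) and without TNFα 4 (adjusted p = 0.0404). With any of the other 6 libraries left out it did not pass (adjusted p up to 0.214). It also passed with DESeq2 (0.0478), limma (0.0163) and no filter on low counts (0.0161). Rgs10 differed by 0.26 ± 0.13, with a 95% interval of -0.01 to 0.53. For Rgs19 the difference was -0.10 ± 0.09, with an interval of -0.29 to 0.09. TMP195 and TPCA-1 were compared with the same TNFα libraries, so a likeness between these comparisons is no separate evidence. Rgs2 was picked for being low in those libraries, so its tests and lack of overlap against them are not independent of the choice.

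**Figure D3:**
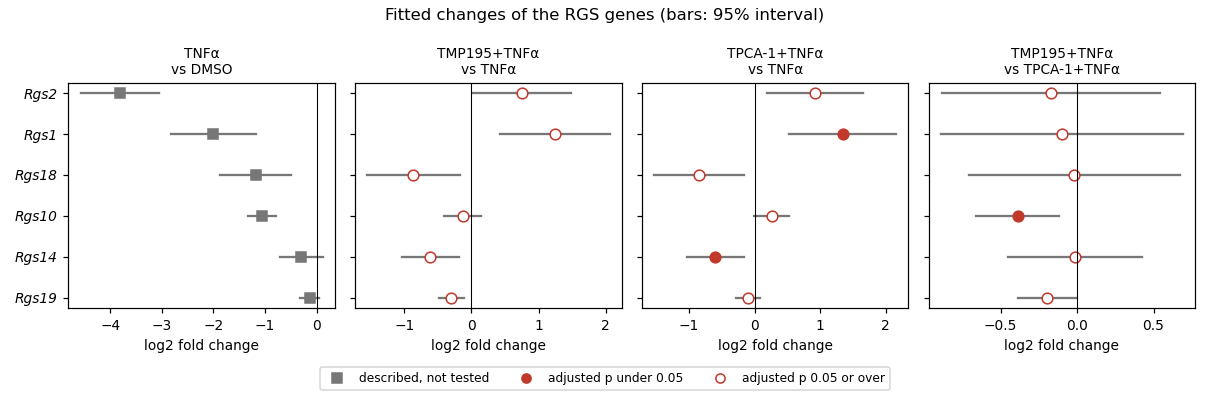
Fitted log2 differences of the 6 RGS genes in 4 comparisons with 95% intervals (the horizontal scale differs between panels); squares were not tested, filled circles have an adjusted p under 0.05 and open circles do not. Rgs1 and Rgs14 are filled for TPCA-1+TNFα against TNFα, Rgs10 is filled between the inhibitors, and no circle is filled for TMP195+TNFα against TNFα.

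Between the inhibitor groups, 1 of 6 members passed (edgeR), against 25.7% of all genes. Rgs10 was lower with TMP195+TNFα than with TPCA-1+TNFα (log2 difference -0.39 ± 0.13, 1.31-fold, adjusted p = 0.0336), although the groups overlapped. The call was lost without TPCA-1+TNFα 1 or 4 or without TMP195+TNFα 2, 3 or 4, with an adjusted p of up to 0.152. Without the 4 libraries numbered 4 the difference was -0.19 ± 0.12 (adjusted p = 0.270). For the other 5 the data leave the following ranges for the log2 difference (95% intervals): -0.89 to 0.69 for Rgs1, -0.88 to 0.54 for Rgs2, -0.45 to 0.42 for Rgs14, -0.71 to 0.67 for Rgs18 and -0.38 to -0.01 for Rgs19. The interval for Rgs19 left out 0, but its adjusted p was 0.120 (edgeR).

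The libraries numbered 4 were low for all 3 chromosome 1 neighbours in 3 of 4 groups. In DMSO, TNFα and TMP195+TNFα, Rgs2 in library 4 was at 45.6%, 45.7% and 38.0% of the mean of libraries 1 to 3. Rgs1 was at 36.7%, 33.4% and 40.8%, and Rgs18 at 58.2%, 59.1% and 50.7%. In TPCA-1+TNFα 4, by contrast, Rgs2 was at 148% and Rgs1 at 118% of that mean, and Rgs18 at 67.3%. Rgs14 went the other way in the first 3 groups, at 140.1%, 143% and 122%. What the replicate numbers stand for is not given in the labels.

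Ratios between members within a library do not depend on how libraries are scaled. They were chosen after the values were seen and are given with no test. The log2 ratio of Rgs1 to Rgs18 counts was -2.05 to -1.11 in DMSO and -3.01 to -1.96 in TNFα. It was -0.58 to 0.47 with TMP195+TNFα and -0.68 to 0.65 with TPCA-1+TNFα. All 8 inhibitor libraries were thus above all 8 libraries without inhibitor in this ratio. The Rgs2 to Rgs18 ratio was -0.73 to -0.35 in DMSO, -3.37 to -2.95 in TNFα, -1.80 to -0.95 with TMP195+TNFα and -1.94 to -0.43 with TPCA-1+TNFα, so the TNFα libraries lay below all others. The Rgs1 to Rgs2 ratio was below 0 in all DMSO libraries (-1.32 to -0.76) and above 0 in the other 12 (0.36 to 1.42).

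**Figure D4:**
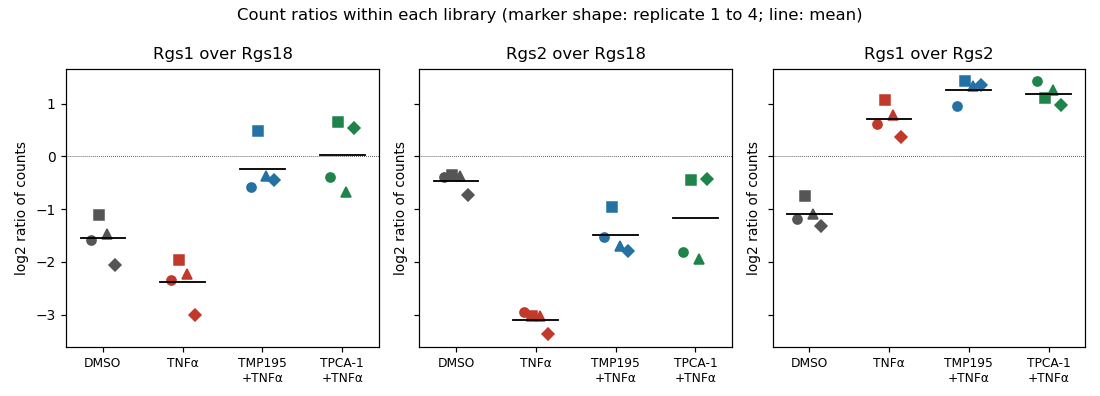
Log2 ratio of read counts between members in each library, by group; marker shape gives the replicate number and the line the mean of 4. The Rgs1 over Rgs18 ratio lies between -3.01 and -1.11 in the DMSO and TNFα libraries and between -0.68 and 0.65 in the inhibitor libraries.

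Genes with profiles most like each member were found by the root mean square difference of centred log2 CPM over the 16 libraries, among 8566 genes with a mean of at least 5 CPM. For Rgs2, whose own spread was 1.54, the nearest were Pclaf (0.525), Rrm2 (0.596), Hmga2 (0.618), Reps2 (0.624), Rnf150 (0.635) and Top2a (0.647). Pclaf was at 17.1 CPM in DMSO, 1.29 in TNFα, 2.20 with TMP195+TNFα and 2.02 with TPCA-1+TNFα (means of 4). The nearest to Rgs1 were Serpinb6b (0.470) and Wee1 (0.481), against a spread of 0.940. For Rgs18 they were Tlr8 (0.292) and Fgd4 (0.299), against 0.998, and Tlr8 was at 213.9, 94.0, 51.5 and 47.9 CPM in the same order of groups. The nearest to Rgs10 were Snx5 (0.134) and Gng2 (0.160), and to Rgs14 Pik3cg (0.165) and Hivep3 (0.197). For Rgs19 they were Ppp1r21 (0.082) and Commd10 (0.097).

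Of 14 other RGS family genes, 7 had 0 reads in all libraries, 3 had at most 1 read in any library, Rgs9 had at most 11, and 3 (Rgs3, Rgs11 and Rgs12) passed the filter. Both Rgs12 (log2 difference 1.35 ± 0.38, adjusted p = 0.0181, edgeR) and Rgs11 (1.01 ± 0.31, adjusted p = 0.0285) rose with TPCA-1+TNFα against TNFα. Rgs12 reached 1.08, 3.65, 1.88 and 1.56 CPM in TPCA-1+TNFα against 0.341, 0.932, 0.887 and 0.772 CPM in TNFα, and its highest value came from the shallow library. The Rgs12 call was lost without TNFα 1 or TPCA-1+TNFα 2 (adjusted p up to 0.0596), and the Rgs11 call without TNFα 1, TNFα 2 or TPCA-1+TNFα 3 (up to 0.108). In the other comparisons the adjusted p of these 3 genes was 0.0673 or above.

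Around the RGS proteins, 98 of 134 listed genes of the G-protein pathway passed the filter. With TNFα against DMSO 13 rose and 25 fell (edgeR), 38.8% of the 98, against 23.4% of all genes. Among the Gα subunits, 4 of 9 fell and the other 5 did not pass, with a median log2 difference of -0.32 against 0.00 over all genes. With 1 library left out, the Gnaq call was lost in 7 of 8 runs and the Gna12 call in 3. Gna15 passed narrowly (adjusted p = 0.0495, edgeR), and the groups of Gna12 and Gna15 overlapped. Gnas, the subunit that stimulates adenylyl cyclase, fell by 0.32 ± 0.08 on the log2 scale (adjusted p = 0.00616), a small change. Of 11 β and γ subunits 2 rose and 3 fell (45.5%, against 23.4% of all genes). Gng2, one of the 2 genes most like Rgs10 in profile, fell from 227 ± 14.8 to 117 ± 10.7 CPM (SD, n = 4; adjusted p = 1.06e-05, edgeR).

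Of 16 effectors 2 rose and 5 fell with TNFα (43.8%, against 23.4% of all genes). The adenylyl cyclase Adcy3 fell by 2.62 ± 0.26 on the log2 scale (adjusted p = 1.08e-06, edgeR), and the phosphodiesterase Pde4b, which degrades cyclic AMP, rose by 1.40 ± 0.15 (adjusted p = 3.44e-06). Pde4b fell with TMP195 (by 0.95 ± 0.15, adjusted p = 0.00166) and with TPCA-1 (by 1.39 ± 0.15, adjusted p = 6.97e-06), both against TNFα alone. Of 30 G-protein-coupled receptors 6 rose and 10 fell with TNFα (53.3%, against the same 23.4%), among them the adenosine receptor Adora2a (4.11 ± 0.29) and the sphingosine-1-phosphate receptor S1pr1, which fell by 2.65 ± 0.21. Of 8 CREB targets, genes driven by cyclic AMP signalling, 2 rose and 2 fell (50.0%, against 23.4%). Thbs1 rose by 2.71 ± 0.29 (adjusted p = 2.42e-06, edgeR), and Sik1 fell by 0.71 ± 0.16 (adjusted p = 0.00248).

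With TMP195+TNFα against TNFα, 5 of the 98 rose and 10 fell, 15.3% against 5.95% of all genes. That count of 15 was 26 with the replicate block, where 13.5% of all genes were called. It was 5 to 12 with 1 library left out, where 3.48% to 4.67% of all genes were called. With TPCA-1+TNFα 14 rose and 16 fell, 30.6% against 19.4% of all genes. With TPCA-1 the Gα genes Gna12 (0.85 ± 0.20, adjusted p = 0.00565, edgeR) and Gnaq (-0.45 ± 0.11, adjusted p = 0.0101) moved in opposite directions. Between the inhibitors 14 were higher and 20 lower with TMP195+TNFα, 34.7% against 25.7% of all genes. Of 11 receptor kinases, arrestins and related regulators, which like RGS proteins end receptor signalling or bind Gα, 6 were lower and the other 5 did not pass. Arrb1, which encodes β-arrestin 1, was at 85.3 ± 9.30 CPM with TMP195+TNFα and 173 ± 18.0 with TPCA-1+TNFα (SD, n = 4; log2 difference -1.02 ± 0.14, adjusted p = 4.09e-05, edgeR). The CREB target Sik1 was lower by 1.26 ± 0.16 with TMP195+TNFα than with TPCA-1+TNFα, at 10.9 ± 1.25 against 25.9 ± 3.79 CPM. Outside the RGS family, and apart from Gnaq, Gna12 and Gna15 with TNFα, each gene call printed here held when any 1 library was left out. These genes are only a part of those called, and other calls were lost. With TMP195+TNFα against TNFα, the Gnb1 call was lost in 8 of 8 such runs. Those of Gng11 and Adcy7 were lost in 6, of Gng4 and Prkar2a in 5 and of Grk2 in 4. The calls of Pde4b, Gpr18, Ccr1 and Ptger2 held.

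**Figure D5:**
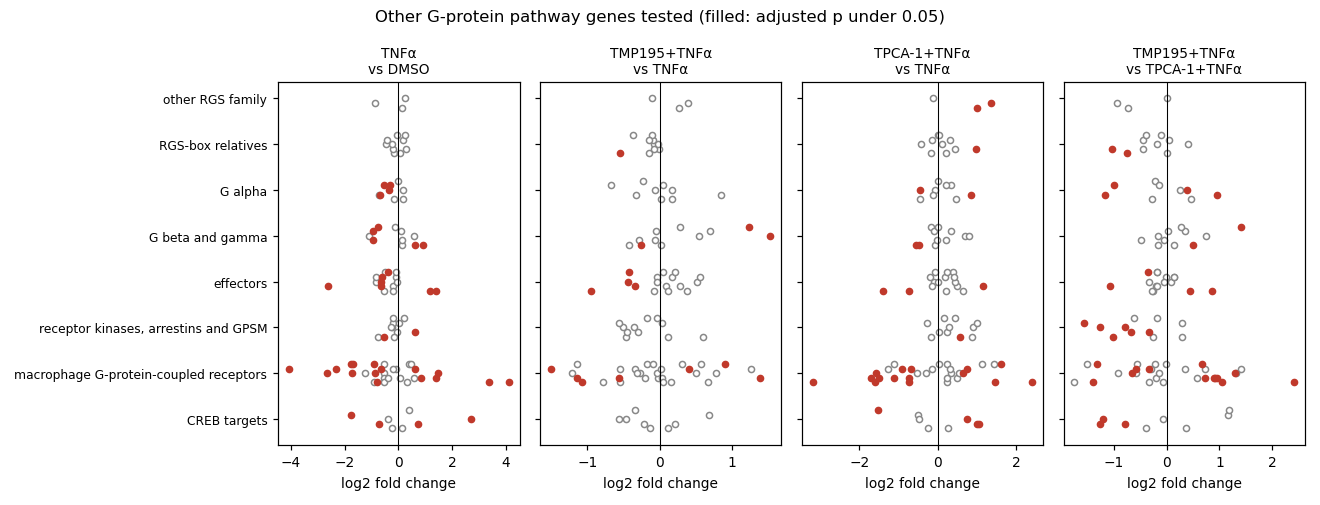
Log2 differences of the 98 tested G-protein pathway genes in 8 lists, for 4 comparisons; each point is a gene, filled where its adjusted p was under 0.05 (the horizontal scale differs between panels). The Gα list has 4 filled points in TNFα against DMSO, all below 0, and the list of receptor kinases, arrestins and related regulators has 6 filled points between the inhibitors, all below 0.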

How the data were processed

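The authors deposited, for each library, whole-number counts of reads per gene on either strand, per the file layout, made with STAR 2.6.1d on mm10/GRCm38 per the submitters' processing notes; the annotation release is not given in the sources used here. The opposite-strand counts were used, since reads on the other strand were 3.19% to 3.72% of both. Symbols and positions came from GENCODE M21 (54809 of 54838 identifiers matched). Lines that name no gene were left out (unassigned reads were 3.44% to 4.96% and ambiguous reads 1.86% to 2.21% of uniquely mapped reads).

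All 16 libraries entered 1 edgeR 4.0.16 quasi-likelihood fit (R 4.3.3) with TMM factors (0.949 to 1.04), the filterByExpr filter and a mean per group. P-values were adjusted by Benjamini-Hochberg over 12612 genes with a threshold of 0.05. Differences are log2 ± SE and levels CPM ± SD. Floors cover counting error only. The code was tested on simulated data.

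The members and lists were chosen with earlier results of these data known. Members were not tested against DMSO. Named are all 7 members; up to 3 called genes of each G-protein list per comparison with the smallest adjusted p, of which the text gives some; other RGS genes that passed the filter; 6 genes nearest in profile to Rgs2 and 2 to each other member; and the highest gene of marker lists that bear on a result, with defining markers at 0. Rgs9, Rgs13, Rgs21, Gm28513, Treml1, Ppbp and the ratios between members were added after values were seen.

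Alternatives were RLE size factors, no filter, unstranded counts, a replicate block, DESeq2 1.42.0, limma 3.58.1 (voom with quality weights), the 8 libraries of a comparison alone, leaving out each library and, added after seeing the data, leaving out the 4 libraries numbered 4. Deviations from group means of same-numbered libraries correlated at 0.270 to 0.681 in all 12 pairs among DMSO, TNFα and TMP195+TNFα, so the numbers were taken as pairing these groups. With TPCA-1+TNFα 8 of 12 pairs passed 0.1, so there they were not. The replicate block was fitted over all 16 libraries, those of TPCA-1+TNFα included.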

Additional observations from a re-analysis of the deposited data

How the results depend on the processing

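Over the alternatives run against DMSO, the 6 members stayed lower than DMSO in each group given TNFα. DESeq2, limma and the 8 libraries alone were not run for the comparisons with DMSO. The percentages in brackets are the shares of all genes called in the same run. Members called for TMP195+TNFα against TNFα (0, 5.95%) numbered 2 with no filter on low counts (2.90%) and 4 with the replicate block (13.5%). They numbered 3 with DESeq2 (8.88%), 4 with limma (14.1%) and 2 without the libraries numbered 4 (2.90%). Leaving out 1 library gave 0 to 1 (3.48% to 4.67%). For TPCA-1+TNFα against TNFα (2 called, 19.4%) they numbered 4 with no filter (8.93%), 1 with counts without regard to strand (19.0%) and 4 with the replicate block (30.4%). They numbered 4 with DESeq2 (18.7%), 1 with the 8 libraries alone (12.9%) and 1 without the libraries numbered 4 (20.5%). Leaving out 1 library gave 0 to 2 (12.9% to 25.9%). Between the inhibitors (1 called, 25.7%) the number was 0 with no filter (12.0%), 0 with the 8 libraries alone (19.8%) and 0 without the libraries numbered 4 (27.1%). It was 0 to 1 when 1 library was left out (19.2% to 30.4%). For TPCA-1+TNFα against TNFα the replicate block added Rgs2 (adjusted p = 0.0147, edgeR) and Rgs18 (0.00353). In the comparisons with TPCA-1+TNFα the samples share only a number. In 6 of 12 pairs the TPCA-1+TNFα library was the best match of the other library among its group, a match sought in that direction only.

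Shares of all genes called in the same run again stand in brackets. Pathway genes called for TMP195+TNFα against TNFα (15, 5.95%) numbered 26 with the replicate block (13.5%) and 24 with limma (14.1%). They numbered 8 without the libraries numbered 4 (2.90%) and 5 to 12 with 1 library left out (3.48% to 4.67%). Between the inhibitors (34, 25.7%) they numbered 52 with the replicate block (36.8%) and 27 to 41 with 1 library left out (19.2% to 30.4%). Differences between the inhibitors that were near 0 changed sign. Without the libraries numbered 4, Rgs1 was at 0.20, Rgs2 at 0.24 and Rgs18 at 0.0395; Rgs18 was at 0.0778 with limma and Rgs14 at 0.0045 with no filter. With 1 library left out the ranges were -0.38 to 0.13 for Rgs1, -0.35 to 0.0764 for Rgs2, -0.10 to 0.19 for Rgs14 and -0.24 to 0.30 for Rgs18. The cause of these changes was not tested. Per kilobase of the longest coding transcript, DMSO levels were 12.6 for Rgs1, 140.2 for Rgs10, 4.70 for Rgs14 and 113 CPM per kb for Rgs19. The depth limits Rgs16, at 0 to 12 reads per library.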
